A study of Mus musculus with 18 samples.

Results

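Left ventricles of Sesn2-knockout (Sesn2-KO) mice after sham surgery were compared with left ventricles of young wild-type (WT) mice after the same surgery. The members were chosen by their labels alone and are all 6 libraries that carry them, 3 of Sesn2-KO sham and 3 of young WT sham hearts, of 18 in the series. The other 12 libraries belong to aged WT sham hearts and to the groups with ischaemia and reperfusion (IR), in which the left anterior descending (LAD) artery was occluded for 45 min, with 24 h of reperfusion. Sham mice were anaesthetised, intubated and ventilated and had a left thoracotomy, and the artery was not closed. The time between sham surgery and harvest is not given in the sources used here.

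Sesn2-KO mice were Sesn2-/- and of the C57BL/6 strain, came from a colony bred in the investigators' own laboratory and were 3 to 4 months old. Young WT mice were C57BL/6 of the same age, bought from Jackson. Aged WT mice were 24 to 26 months old and came from Charles River. They are in no comparison tested here and are described by their levels. Their libraries still enter the low-count filter, the scaling and the shared estimate of the spread. Loss of Sesn2 and the source of the mice therefore changed together, and their effects cannot be told apart in any value below. How the allele was made is not given in the sources used here. The labels do not say which libraries share a litter or a surgery day, and p-values therefore rest on the spread among these libraries alone.

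Sesn2 encodes sestrin 2, a cytosolic protein that cells induce under oxidative, metabolic and endoplasmic reticulum stress. It binds leucine and holds back the GATOR2 complex, which lowers mTORC1 activity, and it also acts with AMPK, the kinase that senses low cellular energy. In heart muscle sestrin 2 is known as a scaffold that brings the kinase LKB1 to AMPK during ischaemia.

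Each sham library held 12323386 to 14258639 reads counted in genes. Levels are given as CPM, which are TMM-scaled counts relative to library size. A gene is called higher or lower where edgeR's quasi-likelihood test gave a Benjamini-Hochberg adjusted p below 0.05 over the 13859 genes tested, and fold changes are log2 of Sesn2-KO over young WT, with their standard errors. Some libraries stood apart. In young sham 1 and Sesn2-KO sham 3 the deviation from the group mean followed transcript length (rank correlations of 0.48 and 0.398, where above 0.3 is called length-tilted here). Young sham 2 deviated the opposite way (-0.429) and was kept in fits without the length-tilted libraries. In young sham 3 the interferon-inducible genes described below were far above their level in the other 5 libraries. On the first principal component of all 18 libraries, which held 40.1% of the variance, Sesn2-KO sham libraries lay at 2.23 to 8.98, against -47.6 to -38.9 for young sham. Aged sham libraries lay at -42.5 to -26.2, and young IR libraries at -11.3 to 28.6.

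Loss of Sesn2, together with the change of colony, went with 708 called genes in sham hearts, or 5.11% of those tested. Of these, 460 were higher in Sesn2-KO (3.32%) and 248 lower (1.79%). The higher genes moved further, with 292 at 2-fold or more and 64 at 8-fold or more, against 115 and 9 of the lower genes. The median over all tested genes was 0.02 on the log2 scale. In 702 of the 708 called genes, and in 25.7% of all tested genes, the CPM of the groups did not overlap. Leaving out 1 library lowered the count to 364, 374 and 462 without Sesn2-KO sham 1, 2 and 3, and to 341, 459 and 296 without young sham 1, 2 and 3. Of the 708 genes, 211 stayed called without each of the 6 libraries in turn, 154 higher and 57 lower. Without young sham 1 and Sesn2-KO sham 3, the length-tilted libraries of the compared groups, 2 libraries a group were left and 158 genes were called.

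The highest genes encode acute-phase proteins, osteopontin, chemokines and products of activated macrophages and neutrophils. Among the 12 lowest named genes, chosen at a mean of 1 CPM or more, Pydc3 and Sesn2 itself were lowest, followed by mesothelial Upk3b. The others included Ddc, which makes dopamine, and several genes of interferon-induced defence.

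**Figure D1:**
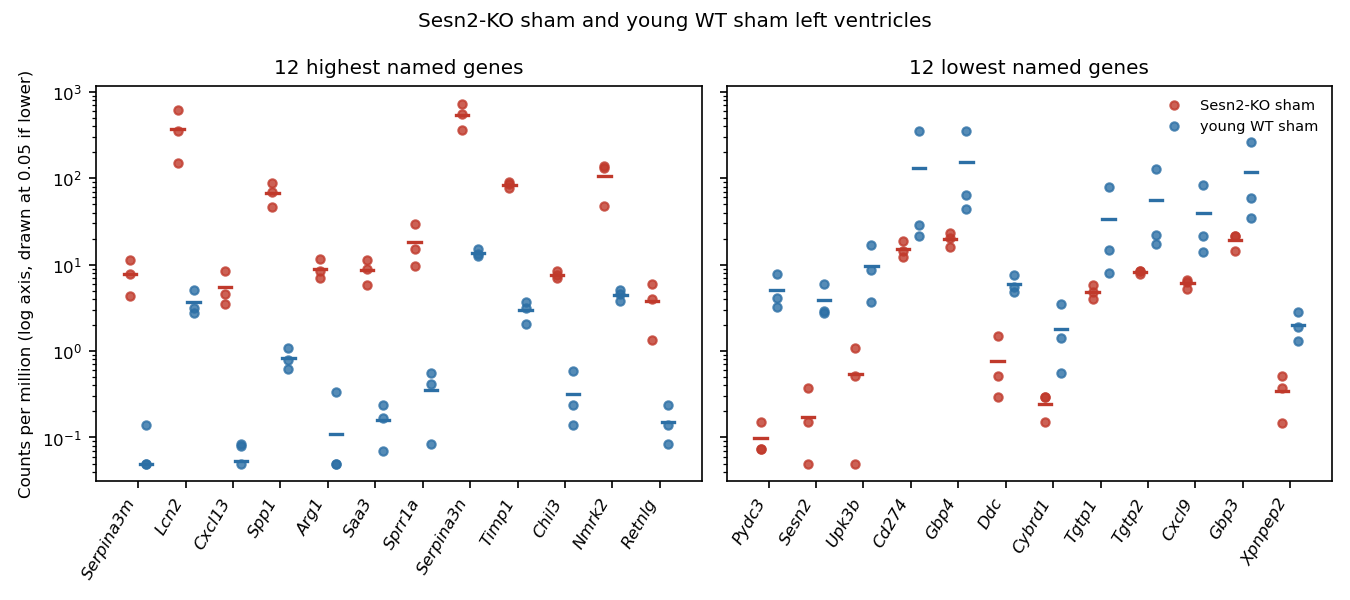
CPM on a log axis for the 12 highest and 12 lowest named genes, with Sesn2-KO sham libraries in red on the left of each gene and young WT sham libraries in blue on the right; bars are group means. Red points lie above blue points in each of the 12 highest genes and below them in each of the 12 lowest, and the interferon-induced genes among the lowest have 1 blue point far above the other 2.

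Sesn2 (chr4:132492032-132510501, minus strand) was read at 0, 0.149 and 0.371 CPM in Sesn2-KO sham hearts, against 5.96, 2.76 and 2.91 CPM in young WT sham hearts. The groups did not overlap, and the log2 fold change was -4.42 ± 0.564 (adjusted p = 0.000371). The transcript was scarce in wild type already. Its paralogues did not pass the test. Sesn1 was at 140, 181 and 172 CPM in Sesn2-KO, against 220, 185 and 198 CPM in young WT (-0.29, adjusted p = 0.439). Sesn3 was at 3.27, 5.51 and 5.49 CPM in Sesn2-KO and at 6.24, 4.11 and 3.24 CPM in young WT (0.06, adjusted p = 0.954).

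Transcripts of the pathway that sestrin 2 acts on gave few calls with edgeR, as did all tested genes (5.11%). Of 43 tested genes for sestrins, the GATOR complexes, the Rag GTPases and mTORC1, 1 was lower (2.33%) and 0 were higher. The lower gene was Sesn2 itself, and the median was -0.02. DESeq2 called 4 of the 43 lower and 0 higher, and limma voom 4 lower and 2 higher. Nearest to the edgeR threshold were 2 Rag GTPase genes, whose products tether mTORC1 to the lysosome. Rragb was at 2.18, 3.28 and 1.85 CPM in Sesn2-KO and at 4.64, 4.18 and 5.65 CPM in young WT (-0.98, adjusted p = 0.0554). Rragd differed by -0.39 (adjusted p = 0.0509). Of 18 genes for AMPK subunits and related kinases 0 were called by edgeR (median 0.04), 3 had an unadjusted p below 0.05, 1 was called by DESeq2 and 3 by limma voom. Among them the AMPK beta subunit gene Prkab1, the closest to the threshold, stood at -0.38 (adjusted p = 0.0509). These values are transcript levels and do not measure kinase activity.

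Genes that the liver and injured tissue turn on during inflammation rose together. Of 14 tested acute-phase genes, 10 were higher and 0 lower (median 2.16), and of 25 genes of the IL-6 family and its STAT3 response, 15 were higher and 0 lower (median 1.25). These lists share genes. Serpina3n, a secreted inhibitor of serine proteases (chr12:104406729-104414329, plus strand), was at 365, 549 and 722 CPM in Sesn2-KO sham hearts, against 13.4, 12.6 and 15.2 CPM in young WT. The lowest Sesn2-KO library lay far above the highest young WT library, and the gene rose 39.7-fold (5.31 ± 0.377, adjusted p = 1.26e-06). Its neighbour and close paralogue Serpina3m had 317 counts in the Sesn2-KO libraries and 2 in the young WT libraries, a ratio of 152 (95% counting interval 41.9 to 1260, adjusted p = 0.000662). Reads from paralogues this alike may have been split between them by the counting.

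Lcn2 encodes lipocalin 2, which binds bacterial siderophores and is made by neutrophils and by stressed heart muscle. It was at 149, 618 and 348 CPM in Sesn2-KO, against 3.12, 2.76 and 5.07 CPM in young WT. Sesn2-KO libraries spread over a wide range, yet all were above young WT (6.67 ± 0.746, adjusted p = 0.000111). Saa3, the serum amyloid gene expressed outside the liver, was at 8.94, 11.3 and 5.78 CPM in Sesn2-KO and at 0.0693, 0.237 and 0.166 CPM in young WT (5.73 ± 0.674, adjusted p = 0.000179). Hp, the gene for haptoglobin, which clears free haemoglobin, was at 19.9, 22.1 and 22.3 CPM in Sesn2-KO and at 0.554, 1.03 and 1.5 CPM in young WT (4.40 ± 0.462, adjusted p = 6.82e-05). The long pentraxin gene Ptx3 rose by 3.62 (adjusted p = 0.000179). Other liver-type acute-phase genes were too low to test. Of these Fgb, Fgg and Apcs had 0 counts in all 6 libraries. Saa1 had 9 counts in Sesn2-KO and 1 in young WT, Hpx 7 and 1, and Orm2 9 and 4. Saa2 had 3 and 1 counts, Orm1 2 and 0, and Fga 1 and 0. Between 6 and 9 acute-phase genes were called when 1 library was left out, with 6 without young sham 3 and also 6 without the length-tilted libraries.

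Within the STAT3 response, Socs3, the feedback inhibitor of IL-6 receptor signalling, was at 19.4, 26.6 and 41.2 CPM in Sesn2-KO, against 5.41, 7.82 and 7.98 CPM in young WT (2.04 ± 0.32, adjusted p = 0.00192). Cebpd, a transcription factor gene induced by IL-6, was at 66.8, 59.2 and 52.0 CPM in Sesn2-KO and at 14.3, 22.8 and 19.3 CPM in young WT (1.66 ± 0.198, adjusted p = 0.000188). Both genes were higher in 3 of 3 Sesn2-KO libraries. Osmr, which encodes the oncostatin M receptor, rose by 1.07 (adjusted p = 0.00723, and 0.113 without the length-tilted libraries). Il6 itself was scarce, with 73 counts in the Sesn2-KO libraries and 2 in the young WT libraries (ratio 35.1, counting interval 9.38 to 295, adjusted p = 0.00363, and 0.0606 without the length-tilted libraries). Reg3b and Reg3a encode secreted lectins, and Reg3b is known as a target of oncostatin M in cardiomyocytes. They had 62 and 80 counts in Sesn2-KO against 0 in young WT, at least 19.9-fold and 25.7-fold higher with a floor of 3 counts over the group. Reg3a and Reg3b are near-identical neighbours, so the split between them is uncertain.

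Sprr1a, a small proline-rich protein gene induced in stressed cardiomyocytes by cytokines of the IL-6 family, was at 9.59, 15.3 and 29.9 CPM in Sesn2-KO, against 0.416, 0.553 and 0.0831 CPM in young WT. No young WT library came near the Sesn2-KO libraries, and the gene rose by 5.64 ± 0.973 (adjusted p = 0.00337, and 0.0654 without the length-tilted libraries).

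Promoter windows of 250 bases before the first start that RefSeq lists (GRCm38.p6) were found for 10 of the 12 highest genes and searched on both strands for 4 motifs. The windows of Serpina3n, the gene with the smallest p of the 12, and of Sprr1a, which held paired AP-1 matches, show what such a window contains. They are written 5′ to 3′ on the gene's own strand with matches in capitals, from chr12:104406458-104406707 (plus strand) and chr3:92485882-92486131 (minus strand).
Serpina3n: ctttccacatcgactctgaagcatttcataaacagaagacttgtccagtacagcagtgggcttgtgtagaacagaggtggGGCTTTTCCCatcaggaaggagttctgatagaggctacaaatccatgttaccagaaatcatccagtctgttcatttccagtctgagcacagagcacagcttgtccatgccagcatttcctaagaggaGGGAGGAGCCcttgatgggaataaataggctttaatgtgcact
Sprr1a: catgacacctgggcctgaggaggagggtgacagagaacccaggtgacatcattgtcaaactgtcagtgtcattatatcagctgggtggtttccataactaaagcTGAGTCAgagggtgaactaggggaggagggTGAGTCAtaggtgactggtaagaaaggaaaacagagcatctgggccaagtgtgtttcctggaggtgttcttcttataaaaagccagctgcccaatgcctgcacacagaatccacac
In Serpina3n the capitals mark 2 matches to the NF-kB pattern (GGGA and CC with any 4 bases between them), at 170 and 43 bases before the start. In Sprr1a they mark 2 matches to the AP-1 pattern TGANTCA, at 146 and 116 bases before the start. The NF-kB pattern was in 3 of the 10 windows (30%), Cxcl13, Serpina3n and Chil3, against 17.3% of all 27025 promoter windows and 22.7% of the windows of tested genes. The AP-1 pattern was in 1 of 10, against 6.87% of all windows and 4.46% of those of tested genes. The STAT pattern TTCNNNGAA was in 1 of the 10, Chil3, against 7.18% of all windows and 6.08% of those of tested genes. The interferon-stimulated response element, TTTC and TTTC with any 2 bases between, was in 2 of the 10, Spp1 and Saa3 (20%), against 3.04% and 2.68%. With 10 windows these shares describe the letters only.

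Cytokine and chemokine genes gave the largest number of calls of any list, 55.9% of those tested against 5.11% of all genes. Larger shares were called of the acute-phase (71.4%), neutrophil (70%) and IL-6 family and STAT3 (60%) lists. Of 34 tested, 18 were higher and 1 lower (median 2.09), and 9 and 1 without the length-tilted libraries. With the sham groups filtered and fitted alone, 28 were tested, 17 higher and 0 lower (median 2.06). Spp1 encodes osteopontin, a secreted matrix protein and cytokine of macrophages and fibroblasts. It was at 46.4, 88 and 68.6 CPM in Sesn2-KO sham hearts, against 0.624, 0.79 and 1.08 CPM in young WT, with no overlap (6.35 ± 0.669, adjusted p = 6.82e-05). Il33, the alarmin gene of stromal and endothelial nuclei, was at 48, 37.1 and 51.7 CPM in Sesn2-KO, against 7.55, 8.53 and 7.65 CPM in young WT (2.53 ± 0.243, adjusted p = 3.34e-05). Ccl11, which encodes the eosinophil chemokine eotaxin, was at 17, 20.1 and 19.3 CPM in Sesn2-KO and at 6.51, 5.84 and 7.65 CPM in young WT (1.50 ± 0.19, adjusted p = 0.000371).

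Chemokines for monocytes and neutrophils rose as well. Ccl7 and Ccl2, which draw monocytes through the receptor CCR2, rose by 2.62 (adjusted p = 0.000403) and 2.09 (adjusted p = 0.00208, and 0.0531 without the length-tilted libraries). Ccl6 and Ccl9, chemokine genes of mouse myeloid cells, rose by 2.15 (adjusted p = 0.000788) and 2.08 (adjusted p = 0.000561). The neutrophil attractants Cxcl1 and Cxcl5 rose by 2.41 (adjusted p = 0.00337) and 4.20 (adjusted p = 0.00451, and 0.062 without the length-tilted libraries). Il1rn, which encodes the antagonist of the IL-1 receptor, rose by 3.81 (adjusted p = 0.0026). Cxcl13, the attractant of B cells, had 225 counts in the Sesn2-KO libraries and 2 in the young WT libraries (ratio 108, counting interval 29.6 to 899). Its adjusted p was 0.0112, and 0.0574 without young sham 1. The 1 lower gene was Cxcl9, an attractant of T cells induced by interferon gamma, which is taken up with the interferon genes.

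Markers of neutrophils and macrophages were higher in the same hearts. Of 20 tested neutrophil genes, 14 were higher and 0 lower (median 3.53). With the sham groups filtered and fitted alone, 16 were tested, 13 higher and 0 lower (median 3.37). The summed CPM of the list was 301 to 709 in Sesn2-KO sham, 20.5 to 37.5 in young WT sham and 224 to 562 in young WT hearts after IR. Lcn2, with the values above, is the highest gene of these sums in Sesn2-KO. S100a8 and S100a9 encode the calprotectin subunits, the main cytosolic proteins of neutrophils. S100a8 was at 25.8, 8.35 and 15.2 CPM in Sesn2-KO and at 0.901, 1.03 and 1.83 CPM in young WT (adjusted p = 0.00117). S100a9 was at 41.4, 13 and 27.2 CPM in Sesn2-KO and at 1.39, 2.21 and 2.91 CPM in young WT (adjusted p = 0.00192). Both were highest in Sesn2-KO sham 1 and above young WT in 3 of 3 libraries.

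Clec4d, a C-type lectin receptor gene of neutrophils and monocytes, was at 6.98, 8.27 and 9.49 CPM in Sesn2-KO, against 0.416, 1.03 and 0.249 CPM in young WT (3.85 ± 0.373, adjusted p = 3.34e-05). Retnlg, a resistin-like gene of neutrophils, rose by 4.53 (adjusted p = 0.023), and the call was lost without any library other than Sesn2-KO sham 2 (adjusted p 0.0546 to 0.0911). Granule genes made in the bone marrow were almost absent, with 1 count of Ngp, 2 of Camp and 4 of Ltf over the Sesn2-KO libraries and 0, 0 and 2 over the young WT libraries. The number of neutrophil genes called was 8, 12 and 10 without Sesn2-KO sham 1, 2 and 3, 6, 9 and 6 without young sham 1, 2 and 3, and 4 without the length-tilted libraries. In bulk tissue fewer cells of a type and less RNA per cell cannot be told apart, and the same holds for more of either.

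Of 34 tested genes of monocytes and macrophages, 9 were higher and 0 lower (median 0.82), 6 to 8 when 1 library was left out, and 1 without the length-tilted libraries. The summed CPM of the list was 1890 to 2010 in Sesn2-KO and 906 to 1420 in young WT. Arg1 and Chil3 are genes of alternatively activated and recruited macrophages in mice. Arg1 was at 11.6, 7.01 and 8.38 CPM in Sesn2-KO, against 0, 0 and 0.332 CPM in young WT (adjusted p = 0.00271). Chil3 was at 6.98, 7.68 and 8.38 CPM in Sesn2-KO and at 0.139, 0.237 and 0.582 CPM in young WT (4.59 ± 0.903, adjusted p = 0.00836, and 0.101 without the length-tilted libraries). All 3 Sesn2-KO libraries were above every young WT library in both genes.

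Lgals3, the galectin 3 gene of phagocytes, was at 41.2, 50.8 and 38.9 CPM in Sesn2-KO and at 4.92, 10.8 and 8.64 CPM in young WT (2.43, adjusted p = 0.00602). The scavenger receptor gene Msr1 rose by 1.63 (adjusted p = 0.00462). Without the length-tilted libraries their adjusted p-values were 0.0683 and 0.0769. Of 16 genes of resident macrophages, 5 were higher and 0 lower (median 0.58), 3 without young sham 1 and 2 without the length-tilted libraries. Mrc1, the mannose receptor gene, was at 102, 110 and 106 CPM in Sesn2-KO and at 50, 64.9 and 63.7 CPM in young WT (0.84, adjusted p = 0.00454, and 0.069 without the length-tilted libraries). Vsig4, a complement receptor gene of resident macrophages, was at 13.9, 14.2 and 11 CPM in Sesn2-KO, against 2.22, 5.53 and 2.58 CPM in young WT (1.92, adjusted p = 0.00239). F13a1, which encodes the A subunit of coagulation factor XIII, rose by 0.96 (adjusted p = 0.00177).

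Complement genes gave 11 higher and 0 lower of 28 (median 0.67), and the summed CPM of the list was 3700 to 3900 in Sesn2-KO and 1890 to 2520 in young WT. C7, a component of the membrane attack complex, was at 55.8, 50.9 and 77.4 CPM in Sesn2-KO, against 19.5, 18.3 and 16.9 CPM in young WT (1.75 ± 0.245, adjusted p = 0.000769). C5ar1, the receptor gene for C5a, rose by 1.34 (adjusted p = 0.00725, and 0.0998 without the length-tilted libraries). The number of higher complement genes was 6, 8 and 6 without Sesn2-KO sham 1, 2 and 3. It was 3, 6 and 7 without young sham 1, 2 and 3, and 2 without the length-tilted libraries. Lymphocyte genes were read at low levels, and without the length-tilted libraries 0 genes of T cells and NK cells and 1 of B cells and plasma cells were called. Of 16 genes of T cells and NK cells 3 were higher, and of 13 genes of B cells and plasma cells 2 were (0 without young sham 3). The median of the B cell and plasma cell genes was -0.26, and 4 of the 13 had a log2 fold change above 0. The T cell calls were 0 without any library other than Sesn2-KO sham 3. The 16 genes of T cells and NK cells had a median of 1.09. With the sham groups filtered and fitted alone, 7 of that list were tested and 2 were higher (median -0.11). Of 7 mast cell genes, 9 erythroid and platelet genes and 9 adipocyte genes, 0 were called by edgeR in each list, with 2, 2 and 3 at an unadjusted p below 0.05. DESeq2 called 0, 1 and 1 of them, and limma voom 1, 3 and 2.

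**Figure D2:**
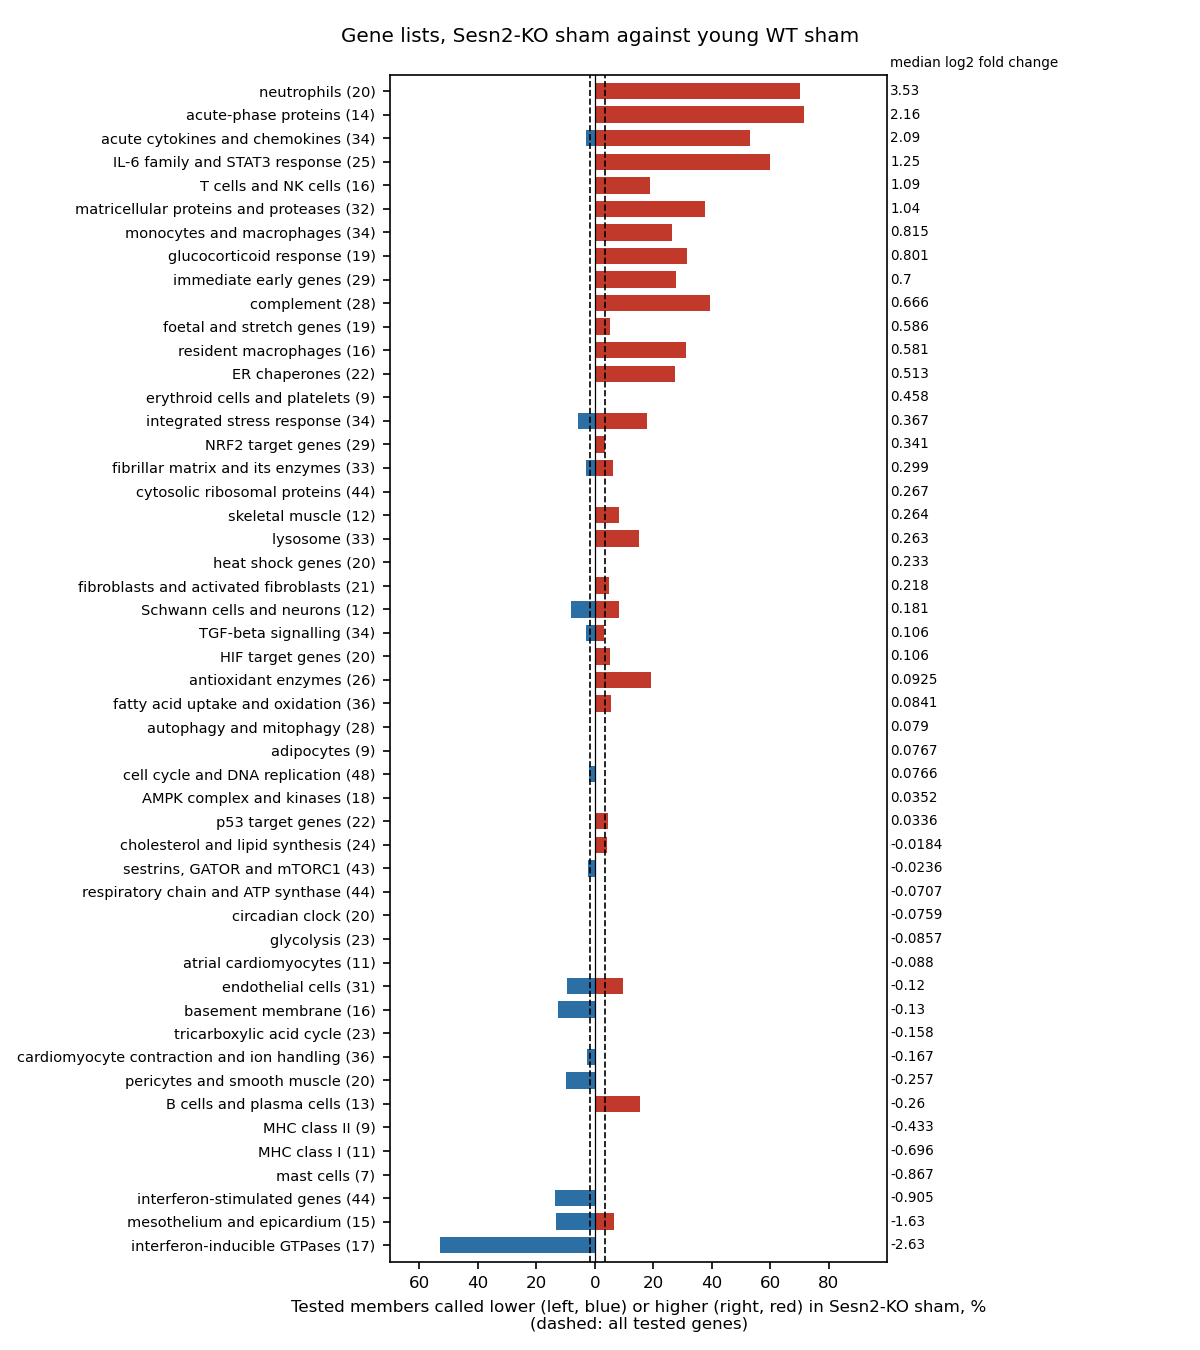
Percent of the tested members of each of 50 gene lists called higher (red) or lower (blue) in Sesn2-KO sham than in young WT sham hearts, with each list's median log2 fold change; dashed lines mark the percent over all tested genes, 3.32% higher and 1.79% lower. The neutrophil, acute-phase, IL-6 and cytokine lists reach furthest on the higher side, and the interferon-inducible GTPases reach furthest on the lower side.

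Matrix genes moved in a narrow set. Of 32 tested genes for matricellular proteins and proteases, 12 were higher and 0 lower (median 1.04), whereas 2 were higher and 1 lower of 33 genes for fibrillar matrix and its enzymes (median 0.30). Without 1 library the fibrillar list gave 0 to 2 calls, with 0 without young sham 3. Without the length-tilted libraries 4 matricellular and protease genes and 0 fibrillar matrix genes were called. Mmp3, the stromelysin gene (chr9:7445822-7455975, plus strand), had the smallest p of the genes named. It was at 115, 87.7 and 88.8 CPM in Sesn2-KO sham hearts, against 4.23, 4.66 and 5.9 CPM in young WT. The groups lay far apart, and the gene rose 19.8-fold (4.30 ± 0.29, adjusted p = 1.11e-06). Timp1, which encodes an inhibitor of matrix metalloproteinases, was at 89.2, 76.6 and 86.5 CPM in Sesn2-KO and at 2.08, 3.16 and 3.74 CPM in young WT (4.82 ± 0.523, adjusted p = 9.28e-05). Mmp19 was at 14.3, 19.6 and 20.8 CPM in Sesn2-KO and at 4.3, 6.47 and 4.82 CPM in young WT (1.81 ± 0.216, adjusted p = 0.000184). A protease gene and the gene for a protease inhibitor were thus both high in the same 3 libraries.

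Ctgf, a matricellular gene induced by mechanical load and TGF-beta, was at 363, 327 and 288 CPM in Sesn2-KO, against 83.2, 85.1 and 81.6 CPM in young WT (1.97 ± 0.443, adjusted p = 0.0178). The levels did not overlap, and the adjusted p was 0.0538 without Sesn2-KO sham 1 and 0.066, 0.0565 and 0.0714 without young sham 1, 2 and 3. Tnc, the tenascin C gene of injured myocardium, was at 20.3, 17 and 29.6 CPM in Sesn2-KO and at 1.32, 1.34 and 1.58 CPM in young WT (3.98, adjusted p = 0.0302). It was not called when any 1 library was left out (adjusted p 0.0528 to 0.11). The number of matricellular genes called was 8, 11 and 8 without Sesn2-KO sham 1, 2 and 3, 6, 6 and 5 without young sham 1, 2 and 3, and 4 without both length-tilted libraries.

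The main fibrillar collagens were not called. Col1a1 was at 108, 150 and 192 CPM in Sesn2-KO and at 81.3, 96.6 and 94.6 CPM in young WT (0.73, adjusted p = 0.189). Col3a1 was at 358, 657 and 740 CPM in Sesn2-KO and at 267, 398 and 301 CPM in young WT (0.86, adjusted p = 0.21). The Col3a1 levels of the groups overlapped. In the basement membrane list, 2 of 16 genes were lower and 0 higher, and 1 was lower without the length-tilted libraries. Col4a3, a chain of type IV collagen, was at 2.69, 2.46 and 3.04 CPM in Sesn2-KO, against 10.2, 7.42 and 7.65 CPM in young WT (-1.62 ± 0.244, adjusted p = 0.00134). Its neighbour Col4a4 stood at -1.09 (adjusted p = 0.0186, and 0.076, 0.0612 and 0.0971 without Sesn2-KO sham 1, Sesn2-KO sham 3 and young sham 1).

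Genes of the cardiomyocyte itself gave few calls with edgeR, as did all tested genes (5.11%). Of 36 genes of contraction and ion handling, 1 was lower (2.78%, against 1.79% of all tested genes) and 0 higher (median -0.17). Log2 fold changes were above 0 in 8 of the 36. DESeq2 called 4 of them lower and limma voom 9, where these tools called 481 and 934 genes lower in all. The summed CPM of the list was 75900 to 79500 in Sesn2-KO and 88100 to 90900 in young WT. The gene called lower by edgeR was Hcn2, a pacemaker channel gene. It was at 12.1, 16.2 and 22.2 CPM in Sesn2-KO and 32.9, 37.6 and 34.1 CPM in young WT. Its log2 fold change was -1.05 (adjusted p = 0.0162, and 0.0785, 0.0612 and 0.0514 without Sesn2-KO sham 1, Sesn2-KO sham 2 and young sham 2). Myh6, the adult myosin heavy chain gene, had a lower mean in Sesn2-KO and was not called (-0.50, adjusted p = 0.0786). Myh7, its foetal counterpart, was at 5000, 1260 and 1500 CPM in Sesn2-KO and at 270, 71.5 and 1030 CPM in young WT. All Sesn2-KO libraries were above young WT, but both groups spread so widely that the log2 difference of 2.50 ± 0.991 had an adjusted p of 0.171.

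The natriuretic peptide genes did not pass the test either. Nppa was at 665, 217 and 316 CPM in Sesn2-KO and at 228, 213 and 272 CPM in young WT (adjusted p = 0.514). The groups overlapped, and of 19 foetal and stretch genes 1 was higher and 0 lower (median 0.59). The higher gene was Ctgf, described above. Outside this list stood Nmrk2, a nicotinamide riboside kinase gene of stressed muscle. Nmrk2 was at 131, 47.5 and 137 CPM in Sesn2-KO and at 3.81, 5.13 and 4.57 CPM in young WT (4.55 ± 1.23, adjusted p = 0.0439). Its levels did not overlap, yet it was not called without any 1 of the 6 libraries (adjusted p 0.0599 to 0.148).

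Energy metabolism gave 0 calls of 23 in the tricarboxylic acid cycle (median -0.16), 0 of 44 in the respiratory chain and ATP synthase (median -0.07) and 0 of 23 in glycolysis with edgeR. At an unadjusted p below 0.05 there were 6, 0 and 7 genes of these lists. DESeq2 called 4 genes of the tricarboxylic acid cycle, 0 of the respiratory chain and 5 of glycolysis, and limma voom called 7, 0 and 6. Fatty acid genes gave 2 higher and 0 lower of 36 (median 0.08), and 1 without the length-tilted libraries. Angptl4, which encodes a secreted inhibitor of lipoprotein lipase, was at 34.3, 119 and 135 CPM in Sesn2-KO, against 7.34, 11.8 and 6.98 CPM in young WT (3.46 ± 0.549, adjusted p = 0.00199). Plin2, the coat protein gene of lipid droplets, was at 129, 222 and 186 CPM in Sesn2-KO and at 87.7, 84.4 and 97.3 CPM in young WT (adjusted p = 0.00656, and 0.0788 without the length-tilted libraries). In both genes Sesn2-KO sham 1 was the lowest of the 3 Sesn2-KO libraries and still above young WT. Of 44 genes of cytosolic ribosomal proteins, 0 were called by edgeR (2 at an unadjusted p below 0.05, 1 by DESeq2, 2 by limma voom). Their log2 fold changes were above 0 in 44 of 44, with a median of 0.27, but the size depended on single libraries. Dropping young sham 1, which is length-tilted, gave a median of 0.105, and dropping young sham 2 gave 0.452. A transcript length covariate brought it to 0.113, and removal of both length-tilted libraries to 0.214. Summed CPM of the list overlapped, at 17100 to 22900 in Sesn2-KO and 12800 to 20600 in young WT.

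Stress programmes in which sestrin 2 is known to take part moved unevenly. Of 26 antioxidant enzyme genes 5 were higher and 0 lower (median 0.09; 3 without the length-tilted libraries), and of 29 NRF2 target genes 1 was higher and 0 lower (median 0.34). Hmox1, which encodes the haem-degrading enzyme haem oxygenase 1, was at 47.9, 84.2 and 81.9 CPM in Sesn2-KO, against 15.4, 16 and 15.7 CPM in young WT (2.18 ± 0.217, adjusted p = 3.91e-05). Gpx3, the secreted glutathione peroxidase gene, was at 655, 669 and 556 CPM in Sesn2-KO and at 234, 297 and 236 CPM in young WT (1.30, adjusted p = 0.00253). The 3 young WT libraries lay close together in Hmox1, and the groups did not overlap in either gene. Mt2, a metal-binding metallothionein gene, was at 102, 194 and 181 CPM in Sesn2-KO and at 28.5, 20.6 and 26 CPM in young WT (adjusted p = 0.000111). Its paralogue Mt1 rose by 1.25 (adjusted p = 0.00723, and 0.0769 without the length-tilted libraries).

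The integrated stress response, which induces Sesn2 through ATF4, gave 6 higher and 2 lower genes of 34 (median 0.37), with Sesn2 itself 1 of the lower ones. Higher and lower calls together numbered 7 without Sesn2-KO sham 3 and 2 to 4 without any 1 of the other libraries, with 2 without young sham 1, and 1 without the length-tilted libraries. Mthfd2, a mitochondrial folate enzyme gene under ATF4, was at 14.1, 9.99 and 10.9 CPM in Sesn2-KO and at 4.02, 3.32 and 4.24 CPM in young WT (1.59, adjusted p = 0.00825, and 0.0673 without the length-tilted libraries). Of 22 chaperone genes of the endoplasmic reticulum 6 were higher and 0 lower (median 0.51). All 22 had log2 fold changes above 0, but 0 to 2 were called when 1 library was left out, and 0 without the length-tilted libraries. Of 33 lysosomal genes 5 were higher and 0 lower (median 0.26), 1 or 2 were called when 1 library was left out, and 0 without the length-tilted libraries. Heat shock genes (0 of 20) and autophagy genes (0 of 28) gave no call with edgeR, with 6 and 4 at an unadjusted p below 0.05, 1 and 1 called by DESeq2, and 2 and 4 by limma voom.

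Of 29 immediate early genes 8 were higher and 0 lower (median 0.70), 5 without Sesn2-KO sham 2 or 3, 3 without young sham 3, and 2 without the length-tilted libraries. Junb, an AP-1 subunit gene, rose by 1.45 (adjusted p = 0.00212) and Ier3 by 1.04 (adjusted p = 0.00499). Myc was at 11.3, 13.7 and 15.6 CPM in Sesn2-KO and at 4.23, 3 and 3.74 CPM in young WT (1.88, adjusted p = 0.00763, and 0.0753 without the length-tilted libraries). Fos was at 11.1, 11.9 and 14.8 CPM in Sesn2-KO and at 1.11, 7.18 and 1.58 CPM in young WT. Young sham 2 lay well above the other young WT libraries in Fos, the other AP-1 subunit gene named here. Glucocorticoid-responsive genes gave 6 higher and 0 lower of 19 (31.6%, against 5.11% of all tested genes, median 0.80). The highest value of this list, 6.67, is that of Lcn2, described above. Clock genes gave 0 calls of 20 with edgeR (2 at an unadjusted p below 0.05, 2 by DESeq2, 1 by limma voom).

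Endothelial genes were called in both directions. Of 31 endothelial genes 3 were higher and 3 lower (median -0.12), and 2 or 3 in all were called without any 1 library or without the length-tilted libraries. Kdr, the main receptor gene for VEGF on endothelium, was at 187, 146 and 140 CPM in Sesn2-KO, against 258, 275 and 253 CPM in young WT (-0.73 ± 0.122, adjusted p = 0.00253). Icam1, the adhesion molecule gene that leukocytes bind, was at 41.6, 40.2 and 38.5 CPM in Sesn2-KO and at 16.2, 25.1 and 23.4 CPM in young WT (0.90, adjusted p = 0.00239). Neither gene overlapped between the groups. Genes for 2 enzymes of catecholamine synthesis were lower, and Th, for the first enzyme, was too low to test, with 3 counts in Sesn2-KO and 0 in young WT. Ddc, which makes dopamine, was at 0.291, 1.49 and 0.519 CPM in Sesn2-KO, against 5.47, 7.66 and 4.82 CPM in young WT (-2.95 ± 0.473, adjusted p = 0.00211). In aged WT sham hearts Ddc averaged 1.18 CPM, within the Sesn2-KO range. Dbh, which makes noradrenaline from dopamine, was at 2.18, 1.56 and 1.48 CPM in Sesn2-KO and at 5.06, 9.32 and 6.15 CPM in young WT (-1.96 ± 0.40, adjusted p = 0.0103, and 0.0673 without the length-tilted libraries). Dbh was the 1 lower gene of 12 tested genes of Schwann cells and neurons, and the 1 higher gene, the adhesion molecule gene Ncam1, was not called without any 1 library.

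Genes of the mesothelium, the cell layer on the heart's surface, were mostly lower in Sesn2-KO, with few calls. Of 15 tested genes 1 was higher and 2 lower (median -1.63), with 0 called without the length-tilted libraries. Log2 fold changes were above 0 in 3 of the 15. The summed CPM of the list overlapped, at 71.7 to 80.9 in Sesn2-KO and 44.3 to 110 in young WT. A large part of the Sesn2-KO sums came from Aldh1a2, described below. Upk3b was at 1.09, 0 and 0.519 CPM in Sesn2-KO and at 3.67, 16.8 and 8.73 CPM in young WT (-4.15 ± 1.08, adjusted p = 0.0369). Its call was lost without any library other than young sham 1 (adjusted p 0.0715 to 0.126). The other lower gene, Bnc1, had 1 count in the Sesn2-KO libraries and 41 in the young WT libraries (ratio 0.0235, counting interval 0.00058 to 0.138). Aldh1a2, a retinoic acid enzyme gene of the mesothelium, ran the other way, at 31, 49.2 and 44.5 CPM in Sesn2-KO and 5.41, 16 and 5.65 CPM in young WT (2.21, adjusted p = 0.0193, and 0.0606, 0.0916 and 0.0907 without Sesn2-KO sham 2, young sham 1 and young sham 3). Without 1 library the list gave 0 to 1 higher and 0 to 2 lower calls, and the 2 lower calls were left only without young sham 1. The part that the amount of this layer had in these values was not tested.

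Interferon-induced genes were lower in Sesn2-KO than in young WT sham hearts, and here 1 library carried most of the difference. Of 17 tested interferon-inducible GTPases, proteins that attack the vacuoles of intracellular pathogens, 9 were lower and 0 higher (median -2.63). Of 44 interferon-stimulated genes 6 were lower and 0 higher (median -0.91). When the sham groups were fitted alone, 0 of the 17 GTPases and 1 of the 44 interferon-stimulated genes were called. Without young sham 3 the medians were -0.28 and -0.23, and 2 genes of each list were called. Without Sesn2-KO sham 1, 2 or 3 each list also gave 2 calls. Without young sham 1 and 2 the GTPase calls were 14 and 15, and those of the other list 12 and 11. Without the length-tilted libraries, which keeps young sham 3, the GTPase calls were 6 and those of the other list 3. The summed CPM of the GTPases was 452 to 533 in Sesn2-KO and 527 to 8830 in young WT. The cause of the high values in young sham 3 was not tested.

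Irgm1 shows the pattern, with 39.7, 39.6 and 34.3 CPM in Sesn2-KO and 39.4, 52.6 and 862 CPM in young WT. The groups overlapped, and the log2 fold change of -3.07 ± 0.826 (adjusted p = 0.0433) became -0.28 without young sham 3 (adjusted p = 0.773). Cd274, the gene for the checkpoint ligand PD-L1, was at 18.7, 14.2 and 12.2 CPM in Sesn2-KO and at 21.2, 29 and 347 CPM in young WT. Its fold change of -3.13 (adjusted p = 0.0302) became -0.74 without young sham 3 (adjusted p = 0.349), and it was not called without any 1 Sesn2-KO library either (0.087 to 0.106).

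A few of these genes were lower than both other young WT libraries too. Gbp4, a guanylate-binding protein gene, was at 20.4, 23 and 15.8 CPM in Sesn2-KO, against 44, 64 and 354 CPM in young WT (-2.96 ± 0.603, adjusted p = 0.0103). Without young sham 3 it remained lower by -1.45 (adjusted p = 0.0418). Gbp9 was at 24.8, 29.6 and 20 CPM in Sesn2-KO and at 45.9, 51.5 and 148 CPM in young WT, and stood at -0.97 without young sham 3 (adjusted p = 0.0478). The values of Gbp4 and Gbp9 without that library are less than their values with it, and neither was called when the sham groups were fitted alone (adjusted p = 0.141 and 0.0743).

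Rsad2, the gene for the antiviral enzyme viperin, was at 18.8, 22.7 and 16.6 CPM in Sesn2-KO and at 43.6, 48 and 93.9 CPM in young WT (-1.67 ± 0.30, adjusted p = 0.00455, and -1.24 with adjusted p = 0.0242 without young sham 3). Cxcl9 was at 6.61, 6.33 and 5.26 CPM in Sesn2-KO and at 13.9, 21.6 and 82.7 CPM in young WT (-2.69 ± 0.534, adjusted p = 0.0088). It was at -1.54 without young sham 3 (adjusted p = 0.0398) and was not called when the sham groups were fitted alone (adjusted p = 0.0839). MHC class I genes, also interferon targets, gave 0 calls of 11 with edgeR (5 at an unadjusted p below 0.05, 2 lower by DESeq2 and 4 by limma voom). Pydc3, a pyrin-domain gene, was the lowest of all named genes, at 0.0727, 0.149 and 0.0741 CPM in Sesn2-KO and at 3.26, 4.11 and 7.73 CPM in young WT (-5.53 ± 0.513, adjusted p = 2.44e-05). Unlike Irgm1 and Cd274, it was called without each of the 6 libraries.

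**Figure D3:**
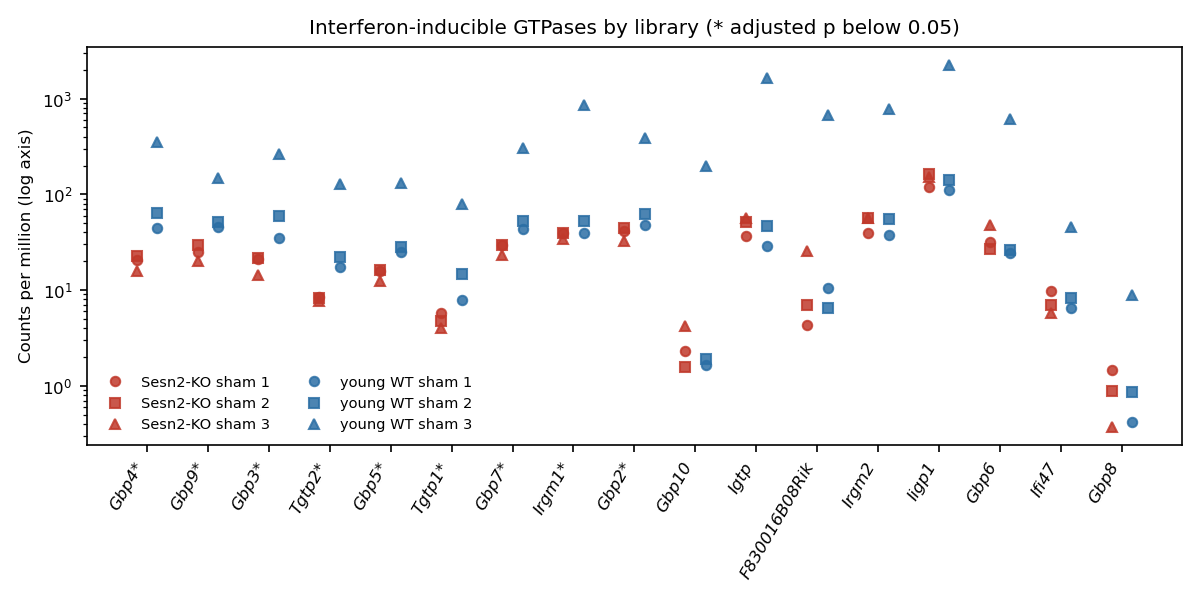
CPM on a log axis of the 17 tested interferon-inducible GTPases in each sham library, Sesn2-KO in red and young WT in blue, with 1 marker shape per replicate number; stars mark adjusted p below 0.05. Young sham 3 lies above every other library in each row drawn, while young sham 1 and 2 lie close to the Sesn2-KO libraries in many genes.

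The GTPase genes share letters in their promoters. RefSeq windows were found for 10 of the 17, and the interferon-stimulated response element was in 9 of the 10 (90%), against 3.04% of all 27025 windows and 2.68% of the windows of tested genes. The STAT pattern TTCNNNGAA was in 6 of the 10. The windows of Irgm1 (chr11:48871421-48871670, minus strand), Gbp7 (chr3:142530086-142530335, plus strand) and Tgtp2 (chr11:49064213-49064462, minus strand) show where these matches lie.
Irgm1: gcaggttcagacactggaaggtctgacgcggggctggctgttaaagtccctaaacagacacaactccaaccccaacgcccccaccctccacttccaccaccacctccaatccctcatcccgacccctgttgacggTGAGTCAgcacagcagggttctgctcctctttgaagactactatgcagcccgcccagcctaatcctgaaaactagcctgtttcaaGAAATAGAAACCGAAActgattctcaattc
Gbp7: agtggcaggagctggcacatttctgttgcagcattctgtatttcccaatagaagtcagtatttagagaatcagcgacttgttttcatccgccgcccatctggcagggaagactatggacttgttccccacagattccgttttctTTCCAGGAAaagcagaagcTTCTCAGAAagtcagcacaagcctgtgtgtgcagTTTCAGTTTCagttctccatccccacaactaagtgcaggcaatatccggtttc
Tgtp2: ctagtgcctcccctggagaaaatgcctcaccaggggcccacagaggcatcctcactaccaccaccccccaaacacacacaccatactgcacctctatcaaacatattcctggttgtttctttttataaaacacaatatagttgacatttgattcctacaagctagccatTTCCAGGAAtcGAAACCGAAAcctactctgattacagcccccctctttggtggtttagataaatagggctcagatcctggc
Capitals mark every match to the 4 motifs. In Irgm1 they mark an AP-1 match 115 bases before the start and 2 overlapping response elements at 30 and 24 bases. In Gbp7 they mark STAT matches at 106 and 87 bases and the response element at 53 bases. In Tgtp2 they mark a STAT match at 81 bases and the response element at 70 bases. Tgtp2 and its near-identical neighbour Tgtp1 stood at -2.76 and -2.79 (adjusted p = 0.0181 and 0.0234), and neither was called without young sham 3 (adjusted p = 0.117 and 0.179). The 1 window of the 10 without the response element was that of Ifi47.

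The same contrast of Sesn2-KO and young WT was read in hearts after IR. Their libraries, like those of aged WT hearts, enter the sham comparison through the low-count filter, the TMM scaling and the shared estimate of the spread. After IR 60 genes were called (0.433% of those tested), 43 higher (0.31%) and 17 lower (0.123%). Of the 708 sham genes 48 were also called after IR, which is 6.78% of the sham calls and 80% of the IR calls. All 48 had the same direction in both, 35 higher and 13 lower. Of the 708, 668 had the same sign after IR whether called or not. Sesn2 was 1 of the 48, at -3.99 ± 0.56 after IR (adjusted p = 0.00461).

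**Figure D4:**
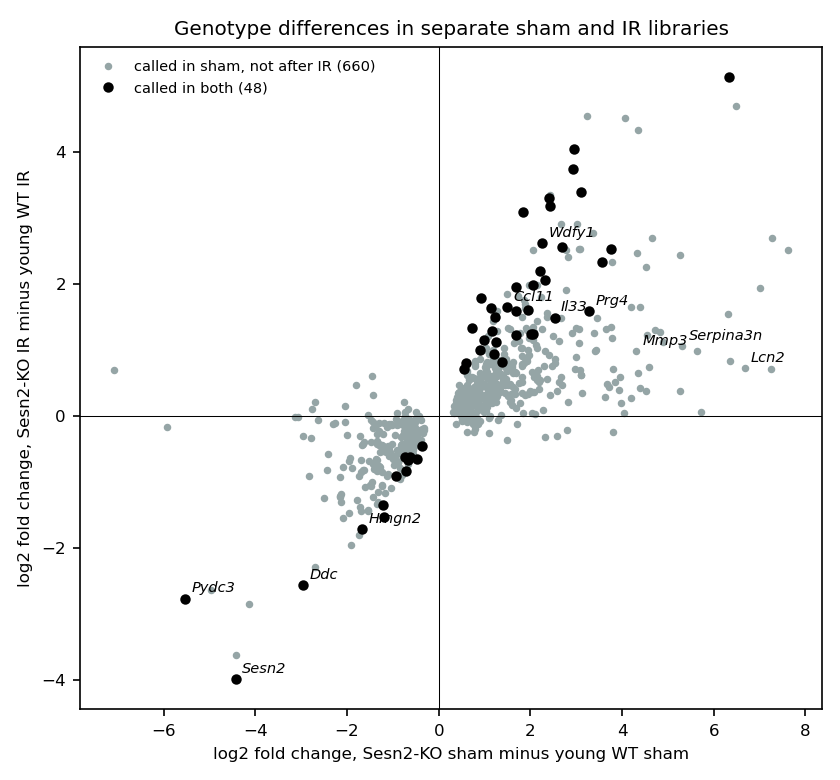
Log2 fold change of Sesn2-KO over young WT in sham hearts (horizontal axis) and after IR (vertical axis) for the 708 genes called in sham hearts; the 48 also called after IR are black and the other 660 grey. The 48 lie below 0 on both axes or above 0 on both, and many grey genes that are high in sham hearts lie near 0 after IR.

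Among the 48 were genes with large differences in both states. Prg4, which encodes the lubricant lubricin, was at 139, 167 and 132 CPM in Sesn2-KO sham hearts, against 16, 13.9 and 15 CPM in young WT sham hearts (3.29 ± 0.267, adjusted p = 6.05e-06, and 1.58 after IR with adjusted p = 0.00843). Cdh22, a cadherin gene, was at 21.2, 11.6 and 21.9 CPM in Sesn2-KO and at 1.32, 1.9 and 1.41 CPM in young WT (3.56 ± 0.302, and 2.33 after IR). In aged WT sham hearts Cdh22 averaged 12 CPM and Prg4 21.3 CPM. Ryr1, the skeletal muscle ryanodine receptor gene, stood at 2.21 in sham hearts and 2.20 after IR, and Nkain2, a neuronal membrane protein gene, at 2.69 and 2.56. Cyp2b10, a cytochrome P450 gene, stood at 3.76 and 2.53, and Cd209f, a lectin gene with close paralogues, at 3.11 and 3.38. Il33 and Ccl11 were also called after IR, at 1.49 (adjusted p = 0.00843) and 1.65 (adjusted p = 0.00154). Aged WT sham hearts averaged 1.87 CPM of Ryr1, 0.924 of Nkain2, 9.87 of Cyp2b10, 5.97 of Cd209f, 14.8 of Il33 and 14.1 of Ccl11. Ryr1 had 29, 29 and 15 counts in aged WT sham libraries. It had 30, 24 and 24 counts in Sesn2-KO sham and 7, 6 and 3 in young WT sham libraries.

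Of 10 tested genes known to differ between C57BL/6 substrains or colonies, 2 were higher and 2 lower in sham hearts, and 1 of each, Wdfy1 and Ide, was called after IR too. Wdfy1 was at 45.8, 48.5 and 55.3 CPM in Sesn2-KO and at 10.4, 9.32 and 11.6 CPM in young WT sham hearts. Ide, the gene for the insulin-degrading enzyme, was at 105, 110 and 108 CPM in Sesn2-KO and at 258, 233 and 253 CPM in young WT. Libraries of each group lay close together and far from the other group in both genes. Nnt, the mitochondrial transhydrogenase gene, was at 1070, 1120 and 1120 CPM in Sesn2-KO, against 768, 551 and 691 CPM in young WT (0.72 ± 0.145, adjusted p = 0.00919). Fgfbp3, also on the list of substrain genes, was lower (-1.35, adjusted p = 0.0413) and was not called without any 1 library (adjusted p 0.0681 to 0.135). Of the 8 tested sex-linked genes 1 was lower, Eif2s3y on the Y chromosome (-0.64, adjusted p = 0.00602).

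Within 10 Mb of Sesn2 on chromosome 4, 257 genes were tested and 10 were called in sham hearts (3.89%), 5 higher and 5 lower. That share is below the 5.11% over all genes. Called in both states were 2 of them beside Sesn2. Hmgn2, a nucleosome-binding protein gene (chr4:133964738-133968650), was at 35, 34.6 and 28.2 CPM in Sesn2-KO and at 92, 103 and 116 CPM in young WT (-1.67 ± 0.21, adjusted p = 0.000347, and -1.72 after IR). Gpn2, a GTPase gene, stood at 0.56 in sham hearts (adjusted p = 0.0358) and was not called without any library other than young sham 3 (adjusted p 0.0675 to 0.15).

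For 8 genes (0.0577% of those tested), all higher in sham hearts, the difference between the sham and the IR contrast itself passed the test. They were Serpina3n, Mmp3, Clec4d, Spp1, Saa3, Lcn2, Ptx3 and Hmox1. Serpina3n averaged 471 CPM in Sesn2-KO and 227 CPM in young WT hearts after IR, so that the log2 fold change of 5.31 in sham hearts stood against 1.06 after IR (adjusted p of the difference = 0.000711). Mmp3 averaged 133 CPM in Sesn2-KO and 67.2 CPM in young WT after IR, a log2 fold change of 0.98 (adjusted p of the difference = 0.000711). Saa3 averaged 7.98 CPM in Sesn2-KO and 7.64 CPM in young WT after IR, a log2 fold change of 0.06 (adjusted p of the difference = 0.0119). In each of these genes young WT hearts after IR were far above young WT sham hearts, and Sesn2-KO sham libraries overlapped or exceeded those of young WT hearts after IR.

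Aged WT sham hearts did not share the levels of Sesn2-KO sham hearts in these 8 genes. They averaged 32.3 CPM of Serpina3n, 4.12 CPM of Lcn2, 1.28 CPM of Spp1, 0.273 CPM of Saa3 and 10.1 CPM of Mmp3. Leaving out 1 library changed the number of genes with a called difference to 2 without young sham 1, 3 without young sham 2, 2 without young sham 3, 5 without Sesn2-KO IR 2 and 16 without young IR 1. Without the length-tilted libraries of the 4 groups 0 differences were called by edgeR, with 534 at an unadjusted p below 0.05.

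**Figure D5:**
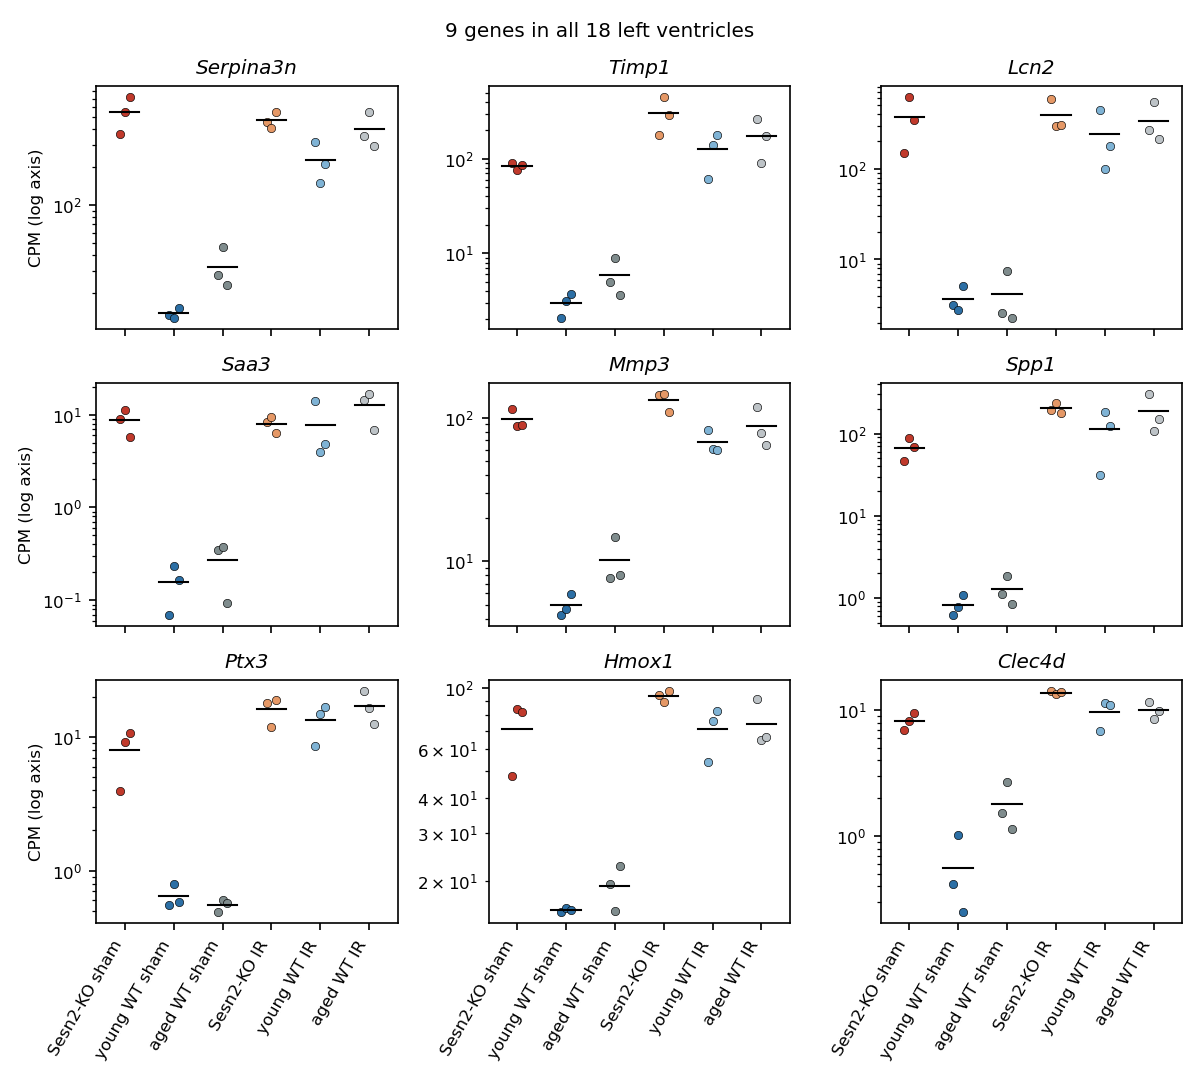
CPM on a log axis of 9 genes in all 18 libraries, grouped from left to right as Sesn2-KO sham, young WT sham, aged WT sham, Sesn2-KO IR, young WT IR and aged WT IR; each point is 1 library and each bar a group mean. Sesn2-KO sham libraries overlap or exceed the young WT IR libraries in each panel, and young and aged WT sham libraries lie below them.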

How the data were processed

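Poly(A) RNA of freeze-clamped left ventricles was sequenced as stranded, paired-end libraries, per the labels' protocols. The authors deposited raw read counts per gene, 1 file a library, with rows for reads in no gene (6.86 to 9.06% in the sham libraries) and ambiguous reads (0.631 to 0.736%), which were left out of library sizes and tests. The submitters' processing notes name FastQC, Bowtie2, TopHat2, HTSeq, SAMtools and build mm10; no version, strand option or annotation is given in the sources used here. Overlapping genes on opposite strands, and paralogues such as the Serpina3, Gbp, Irgm, Tgtp, Reg3, Mt, Cd209, Ccl and Cxcl genes, may therefore share reads.

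Genes were filtered with edgeR 4.0.16 (R 4.3.3; filterByExpr by group), scaled by TMM and fitted in 1 model with 6 group means over all 18 libraries. The filter used all 18 libraries, so a gene scarce in young WT sham hearts could pass through other groups. Robust quasi-likelihood tests were run for 3 comparisons, each Benjamini-Hochberg adjusted over 13859 genes with a threshold of 0.05. The script was tested on simulated data. CPM were computed from the deposited counts and TMM-scaled library sizes. GENCODE M21 gave positions and transcript lengths for 23334 of 24421 symbols, and RefSeq the promoter windows. Intervals and floors cover counting error only.

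Named genes are the 12 highest and 12 lowest called genes whose sham libraries averaged 1 CPM or more without overlap, without predicted genes. To these come up to 4 members of each list by p, the sestrins, the colony and sex-linked genes, and genes within 10 Mb of Sesn2 called in both states. Genes named outside this rule were chosen after their values were seen. They are Socs3, Osmr, Il6, Reg3a, Reg3b, Ccl2, Ccl6, Ccl7, Ccl9, Cxcl1, Cxcl5, Il1rn, Tnc, Col1a1, Col3a1, Fos, Irgm1, Gbp7, Ifi47, Prg4, Cdh22, Nkain2, Cyp2b10 and Cd209f, and the untested granule and acute-phase genes. Members and lists were chosen with earlier results of these data known, and some genes are on more than 1 list.

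Alternatives were DESeq2 1.42.0 size factors, upper quartile scaling, no filter, the DESeq2 Wald test, limma 3.58.1 voom with quality weights, a replicate block, a transcript length covariate, the compared groups alone, and leaving out single or length-tilted libraries. In the compared sham groups replicate numbers did not pair the libraries: deviations of Sesn2-KO and young WT sham libraries of the same number correlated at -0.25, 0.25 and -0.046. Pairing in the other groups was not tested. Over the series the length-tilted libraries were replicate 1 of young sham (0.48) and aged sham (0.34). They were replicate 3 of Sesn2-KO sham (0.398), Sesn2-KO IR (0.374), young IR (0.314) and aged IR (0.387). The cause of this arrangement was not tested. No sham libraries were identical.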

Additional observations from a re-analysis of the deposited data

Results flagged for a closer look

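For 8 genes the difference of Sesn2-KO from young WT in sham hearts differed from the same difference after IR by a test of the difference itself (edgeR's quasi-likelihood test, Benjamini-Hochberg adjusted). Each value is the sham log2 fold change minus the IR log2 fold change. Saa3 (5.67, adjusted p = 0.0119), Lcn2 (5.95, adjusted p = 0.0121) and Spp1 (5.51, adjusted p = 0.0119) had the highest values. After IR Lcn2 averaged 394 CPM in Sesn2-KO and 239 CPM in young WT hearts, and Spp1 averaged 204 CPM in Sesn2-KO and 114 CPM in young WT hearts. Serpina3n stood at 4.26 and Mmp3 at 3.32, both with an adjusted p of 0.000711. Clec4d stood at 3.35 (adjusted p = 0.0111), with 13.8 CPM in Sesn2-KO and 9.76 CPM in young WT hearts after IR. Ptx3 stood at 3.33 (adjusted p = 0.0242), with 16.4 CPM in Sesn2-KO and 13.5 CPM in young WT hearts after IR. Hmox1 stood at 1.78 (adjusted p = 0.0287), with 93.7 CPM in Sesn2-KO and 70.9 CPM in young WT hearts after IR. Without the length-tilted libraries of these 4 groups none of the 8 differences was called by edgeR.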

How the results depend on the processing

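Of the 708 genes called in sham hearts, counts within 1.5 times were given by upper quartile scaling (653), DESeq2 size factors (695), the sham groups fitted alone (617) and all genes without a low-count filter (583). Length-tilted libraries were left out of the compared groups only. The count was 1112 with the DESeq2 Wald test, 2167 with limma voom, 1679 with the length covariate and 158 without the length-tilted libraries, and 296 to 462 without 1 library. Of the named genes 102 were called, 49 without the length-tilted libraries and 62 to 73 without 1 library. Of genes on the lists 153 were called, against 333 with limma voom, 264 with the length covariate, 53 without the length-tilted libraries and 81 to 121 without 1 library. After IR the 60 calls became 258 with the DESeq2 Wald test, 227 with limma voom, 192 with the length covariate, 4 with the IR groups fitted alone, 19 without the length-tilted libraries and 9 to 97 without 1 library. The 8 called differences between sham and IR became 30 with the DESeq2 Wald test and 2 to 16 without 1 library. Without the length-tilted libraries edgeR called 0 differences, with 534 genes at an unadjusted p below 0.05; the other tools were not run without these libraries. The causes of these shifts were not tested. With the replicate number as a block, 755 genes were called in sham hearts, 68 after IR and 6 in the difference. In the compared sham groups the numbers did not pair the libraries. What depth limits was not tested.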
